A study of Homo sapiens with 6 samples.

Results

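Keratins are the intermediate filament proteins of epithelial cells, and 8 of their genes were followed here in a melanoma line, a cell of neural crest origin in which they are not the main filament. KRT5, KRT14 and KRT17 belong to basal cells of stratified epithelia, KRT13 to the upper layers of inner stratified epithelia, and KRT7, KRT8, KRT18 and KRT19 to simple epithelia. The 8 genes were chosen by name with earlier results of these arrays known. Each gene was read from the probe set that names it alone, taking the set with the highest mean where there were several. Of the 8 genes 7 had such a set, among 19676 genes in all. No probe set carried KRT17 as its only gene in the annotation used, and it was not analysed here. Because the arrays themselves led to the choice of genes and of probe sets, all values below are descriptions, and no test was run.

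The cells were A375, an established human melanoma line with a mutated BRAF gene, and every condition was measured on 1 Affymetrix array. At 6 h the conditions were 10 µM vemurafenib together with 100 nM AT9283, vemurafenib alone, AT9283 alone, and DMSO, the solvent. At 16 h they were 10 µM vemurafenib and DMSO. Vemurafenib blocks the mutant BRAF kinase upstream of MEK and ERK. AT9283 blocks Aurora kinases, JAK2 and further kinases. Values are log2 intensities. A gene is said to have risen or fallen when 2 arrays differed by at least 1 on this scale, which is 2-fold, and the higher array reached log2 6, under which a value is called near background. As each condition is a single array, nothing here can be checked against replicates, and the precision of every value is limited by the number of arrays. The median intensity lay between 19.79 and 21.29 over the 6 arrays. DUSP6, a phosphatase that ERK induces, stood at log2 4.28 in vemurafenib, against 9.50 in DMSO, at 6 h and at 4.38 in vemurafenib, against 9.60 in DMSO, at 16 h.

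Keratin filaments are built from pairs of a type I and a type II protein. KRT5 (type II) pairs with KRT14 (type I) in basal cells, KRT8 (type II) with KRT18 (type I) in simple epithelia, and KRT13 (type I) pairs with the type II protein KRT4 in the mouth and oesophagus. KRT7 is a type II and KRT19 a type I keratin of ducts and glands. KRT8 and KRT18 are also made by many tumour cells that are not epithelial, melanoma among them.

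The promoter of KRT5 is shown because KRT5 was a member over the size rule for which the RefSeq table (GRCh38.p14) held one. The promoter table held 2 of the 8 genes, KRT5 and KRT8. The 250 bases before the KRT5 start lie at chr12:52520395-52520644 on the minus strand and read 5′ to 3′:
KRT5: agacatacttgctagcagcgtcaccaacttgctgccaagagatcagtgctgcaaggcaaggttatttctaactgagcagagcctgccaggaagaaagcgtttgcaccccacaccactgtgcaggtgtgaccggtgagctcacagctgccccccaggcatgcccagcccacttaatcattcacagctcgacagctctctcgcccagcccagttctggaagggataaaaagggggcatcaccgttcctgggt
Neither the AP-1 motif TGANTCA, the TATA box TATAAA nor the GC box GGGCGG was present in these 250 bases or the 50 that follow, on either strand, and for that reason no letter is in capitals. The same motifs were found in 7.71%, 11.5% and 45.0% of 35116 promoters of 300 bases. The missing match describes only the letters of this window. Only exact matches were looked for, so a variant of a motif, such as one of the TATA box, would not be found.

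After 16 h of vemurafenib the stratified epithelial keratins KRT13, KRT14 and KRT5 rose, and no member fell. These are 3 of 7 members measured. Over all 19676 genes 2.5% rose and 2.79% fell in this comparison. The comparison is among those through which the genes came to be chosen, so nothing is read from that contrast of shares.

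KRT13 had an intensity of 221 in vemurafenib at 16 h, against 9.82 in DMSO. On the log2 scale this was 7.79 in vemurafenib and 3.30 in DMSO, a difference of 4.49 or 22.5-fold. At 6 h its intensities were 8.02 in the combination, 6.01 in vemurafenib, 5.93 in AT9283 and 4.43 in DMSO, all far below the intensity of 64 that equals log2 6. Only the vemurafenib array at 16 h therefore carried a value above log2 6, and KRT13 reached the rule through that array alone. Near background the same probe set differed by 1.15 between DMSO at 16 h and DMSO at 6 h, so the size of the rise depends on values near background. With 16 added to every intensity, which damps such values, the difference at 16 h was 3.20, and against the average of the DMSO arrays of both times it was 5.06. Its probe set carries the mark for sets shared between transcripts, and no other was named for KRT13 alone.

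KRT14 lay above log2 6 on every array. Its log2 value was 9.10 in vemurafenib at 16 h, against 7.72 in DMSO, a difference of 1.38 or 2.60-fold. Its 6 h values were 7.84 in the combination, 7.91 in vemurafenib, 7.46 in AT9283 and 7.48 in DMSO. Both arrays with vemurafenib at 6 h thus lay above both without it, by 0.36 to 0.45 when each is set against DMSO or AT9283, which is under the size rule. The DMSO arrays differed by 0.24 between 16 h and 6 h.

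KRT5, the type II partner of KRT14, was lower in signal. It stood at log2 6.40 in vemurafenib at 16 h, against 5.16 in DMSO, a difference of 1.24 or 2.36-fold. At 6 h it was 5.04 in the combination, 5.07 in vemurafenib, 4.85 in AT9283 and 4.87 in DMSO. As with KRT14, the arrays with vemurafenib were the higher pair at 6 h, here by 0.17 to 0.21 and below log2 6 throughout. KRT5 was the member closest to both limits of the rule, and with 16 added to every intensity its difference was 0.96, just under it. The member closest to the rule from outside was KRT18.

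**Figure D1:**
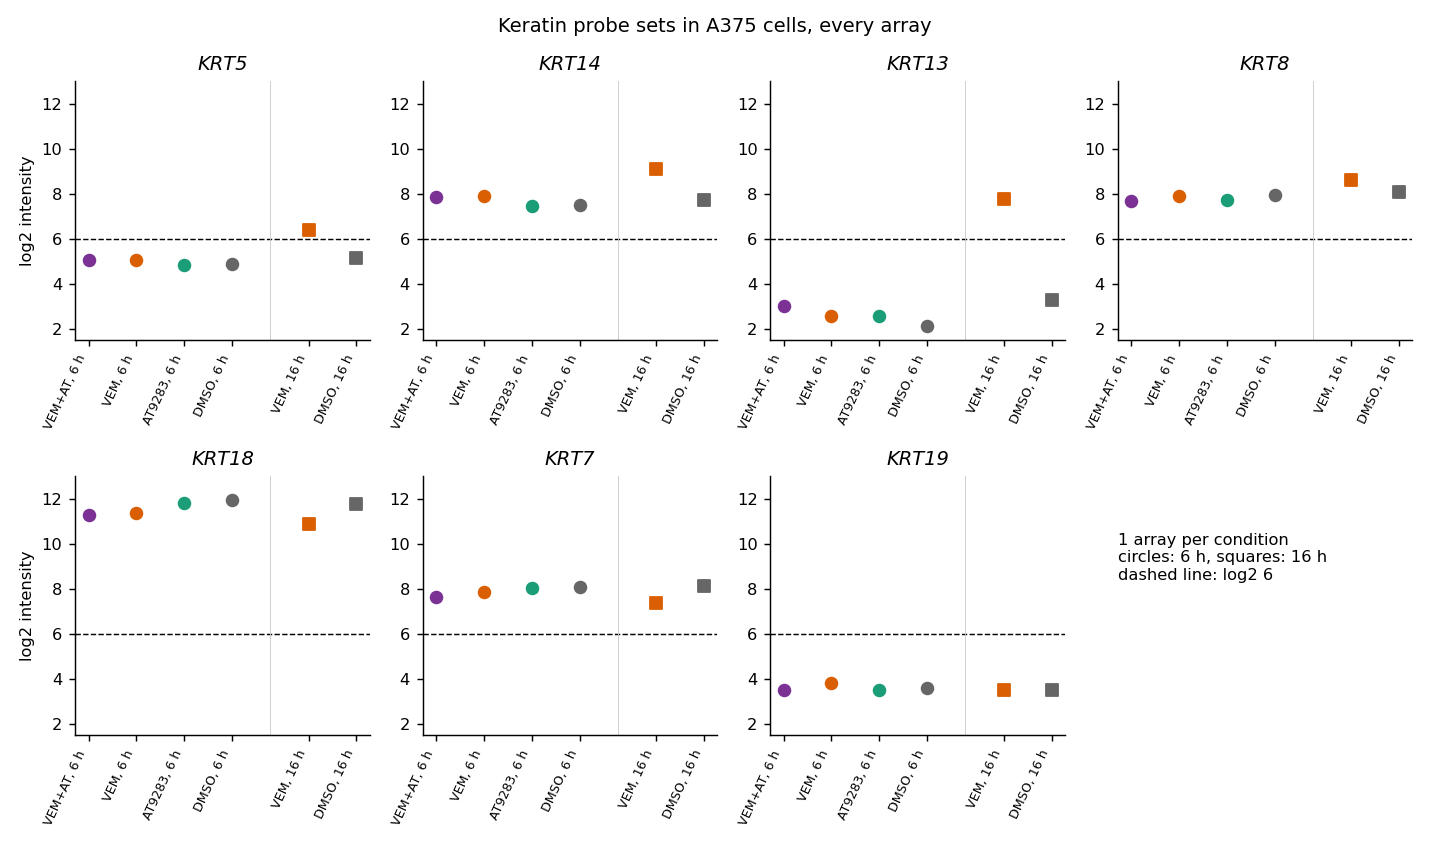
Log2 intensity (vertical axis) of the 7 measured keratins on each of the 6 arrays, with 6 h arrays as circles and 16 h arrays as squares and 1 array per condition; the dashed line is log2 6. KRT13 stands at 7.79 on the vemurafenib array at 16 h and at or below 3.30 on all others, KRT14 and KRT5 have their highest value on that array, KRT18 and KRT7 their lowest, and KRT19 stays below the line.

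The simple epithelial keratins did not pass the size rule in any of the 7 comparisons, and the type I and type II partners KRT18 and KRT8 had differences of opposite sign at 16 h. KRT18 stood at log2 10.89 in vemurafenib at 16 h, against 11.75 in DMSO, a difference of -0.86. Its log2 value at 6 h was 11.28 in the combination, 11.35 in vemurafenib, 11.79 in AT9283 and 11.96 in DMSO. At both times the arrays with vemurafenib were lower than those without it, with differences from DMSO of -0.61 for vemurafenib and -0.68 for the combination at 6 h. The DMSO arrays themselves differed by -0.21 between 16 h and 6 h. At a limit of 1.5-fold in place of 2-fold, KRT18 passed in vemurafenib at both times and in the combination against DMSO.

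KRT8 stood at log2 8.63 in vemurafenib at 16 h, against 8.08 in DMSO, a difference of 0.55. The 6 h arrays gave 7.68 in the combination, 7.90 in vemurafenib, 7.73 in AT9283 and 7.93 in DMSO. Here the arrays with AT9283 were the lower pair, by -0.19 for AT9283 against DMSO and by -0.22 for the combination against vemurafenib. The probe sets of KRT8 and KRT18 carry the mark for sets whose probes may bind other transcripts. Both genes have many processed pseudogenes, so signal from a copy cannot be told apart from the gene, and neither had another probe set named for it alone.

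KRT7 was also lower with vemurafenib, with log2 7.35 in vemurafenib at 16 h, against 8.11 in DMSO, a difference of -0.76. At 6 h it was 7.64 in the combination, 7.86 in vemurafenib, 8.06 in AT9283 and 8.08 in DMSO. The combination array lay below the vemurafenib array by 0.22, and AT9283 alone differed from DMSO by -0.02. KRT7 had 3 other probe sets, all below log2 6 on every array, and on each of them the vemurafenib and DMSO values at 16 h were identical. The mean over its probe sets therefore differed by only -0.19 at 16 h.

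KRT19 lay near background on every array. Its log2 value was 3.50 in vemurafenib and 3.50 in DMSO at 16 h, where the deposited intensity was 11.28 on both arrays. The 6 h values were 3.50 in the combination, 3.81 in vemurafenib, 3.53 in AT9283 and 3.60 in DMSO. Its second probe set was likewise below log2 6 on all arrays, so no statement on KRT19 can be made from these values.

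Identical values such as those of KRT7 and KRT19 were common between the 16 h arrays. Of 54675 probe sets 4493, or 8.22%, had exactly the same deposited intensity in vemurafenib and DMSO at 16 h. Between any pair of the 6 h arrays the number was 592 to 731, and between an array of one time and an array of the other it was 84 to 103. The sources used here do not say whether the arrays of both times were normalized together, and in the comparison of DMSO at 16 h with DMSO at 6 h the time in culture and the processing cannot be told apart. The vemurafenib differences at each time are within 1 time and do not rest on that comparison. The exceptions are the alternative values taken against the average of the DMSO arrays of both times.

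At 6 h no member passed the size rule under vemurafenib alone, where 0.478% of all genes rose and 0.991% fell. The same was true of the combination against DMSO (0.295% rose, 0.889% fell), of AT9283 against DMSO (0.0102% rose, 0.0% fell), of the combination against vemurafenib (0.0% rose, 0.147% fell) and of the combination against AT9283 (0.208% rose, 0.91% fell). Between DMSO at 16 h and DMSO at 6 h, 0 of 7 passed as well, with 0.0915% of genes higher and 0.0661% lower. AT9283 alone left the differences of KRT5, KRT7 and KRT14 at -0.02 each, with -0.17 for KRT18 and -0.19 for KRT8. KRT13 had 0.42 here, on values near background.

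The combination was set beside vemurafenib alone for the members above log2 6 at 6 h. Both comparisons share the DMSO array. KRT14 differed from DMSO by 0.36 in the combination and by 0.43 in vemurafenib alone. KRT18 differed by -0.68 in the combination and by -0.61 in vemurafenib alone. KRT7 differed by -0.44 in the combination and by -0.22 in vemurafenib alone. KRT8 differed by -0.25 in the combination and by -0.03 in vemurafenib alone. The effect of vemurafenib with AT9283 present (combination minus AT9283) less that without it was -0.05 for KRT14, 0.10 for KRT18, -0.20 for KRT7 and -0.02 for KRT8, none of which has a replicate error to be read against.

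**Figure D2:**
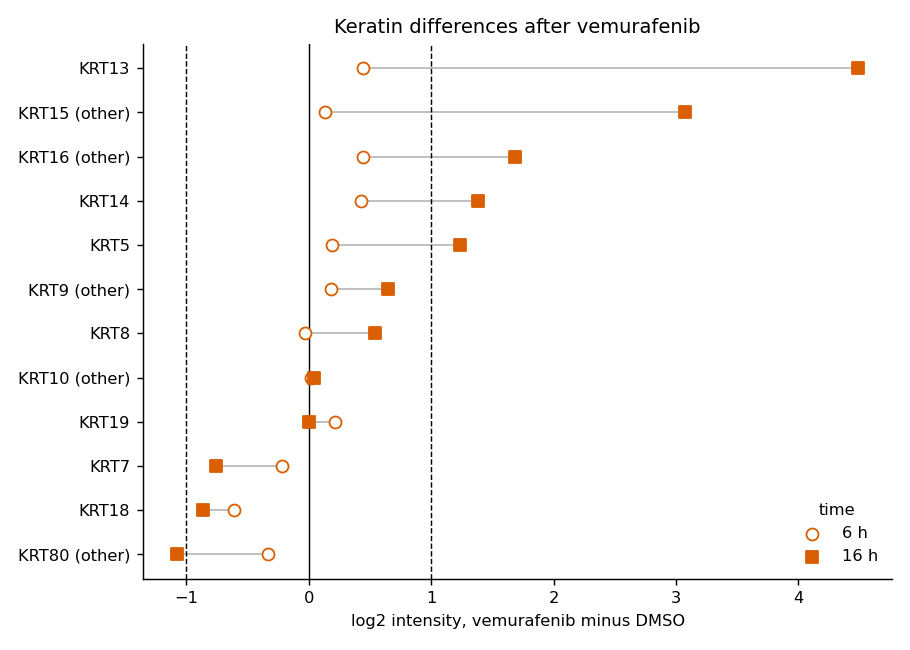
Difference in log2 intensity between vemurafenib and DMSO (horizontal axis) for the 7 members and the 5 other keratins that reached log2 6, with open circles for 6 h and filled squares for 16 h; dashed lines mark differences of 1 either way. At 6 h all points lie between the dashed lines, and at 16 h KRT13, KRT15, KRT16, KRT14 and KRT5 lie above and KRT80 below them.

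Other keratins that were not on the list of members were looked at for the same comparison. Of 46 further keratin genes 36 were measured, and 31 of these lay below log2 6 on every array. Among those 31 the vemurafenib differences at 16 h ranged from -0.64 for KRT3 to 0.41 for KRT32. Of the 5 that reached log2 6, KRT15 and KRT16 rose, KRT80 fell, and KRT9 and KRT10 had differences of 0.65 and 0.04. Over all 43 measured keratins 5 rose and 1 fell, beside 2.5% rising and 2.79% falling over all genes. The median difference was 0.04, against a median of 0.00 over all genes. Of the 5 that rose, 3 are the members KRT13, KRT14 and KRT5, chosen with earlier results of these arrays known. Nothing is read from these counts.

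KRT15, a keratin of basal cells and hair follicle stem cells, stood at log2 8.97 in vemurafenib at 16 h, against 5.89 in DMSO, a difference of 3.08. At 6 h it lay between 5.37 and 5.50 on all 4 arrays, so that, as for KRT13, the vemurafenib array at 16 h stood alone. KRT16, a keratin of wounded and activated epidermis, stood at 6.10 in vemurafenib at 16 h, just over the floor, against 4.41 in DMSO, a difference of 1.68. KRT14 and KRT16 are closely related in sequence, and signal shared between their probe sets was not tested. KRT80, a type II keratin, stood at 7.77 in vemurafenib at 16 h, against 8.85 in DMSO, a difference of -1.07. At 6 h KRT80 was 8.59 in the combination, 8.91 in vemurafenib, 9.13 in AT9283 and 9.24 in DMSO, the same order of the 4 arrays as KRT7 and KRT18 showed.

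The type I keratins that rose form 2 neighbouring pairs within a stretch of 7 genes on chromosome 17. In the RefSeq gene order (GRCh38.p14) KRT13, KRT15, KRT19, KRT9, KRT14, KRT16 and KRT17 are consecutive protein-coding genes, and KRT13 with KRT15 and KRT14 with KRT16 rose. Between these pairs lie KRT19, near background at 0.00, and KRT9, at 0.65. The 6 hair keratin genes on the KRT13 side are KRT31, KRT37, KRT38, KRT32, KRT35 and KRT36, in that order. Their differences at 16 h lay between -0.11 for KRT37 and 0.41 for KRT32, with both arrays near background. On the other side EIF1, a translation factor, had a difference of 0.16, and the desmosomal plakoglobin gene JUP had -0.07, near background. The 8 genes on that side ranged from -0.29 for P3H4 to 0.41 for FKBP10.

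On chromosome 12 the order was different. KRT80 and KRT7 are neighbours at an end of the type II cluster and both had negative differences, -1.07 and -0.76. KRT5 lies in the middle of the cluster, and its measured keratin neighbours KRT75 (0.07) and KRT71 (0.05) were near background. KRT8 and KRT18, whose differences had opposite signs, are neighbours at the other end, KRT18 being the type I gene of this cluster. They are followed by EIF4B, at 0.52.

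**Figure D3:**
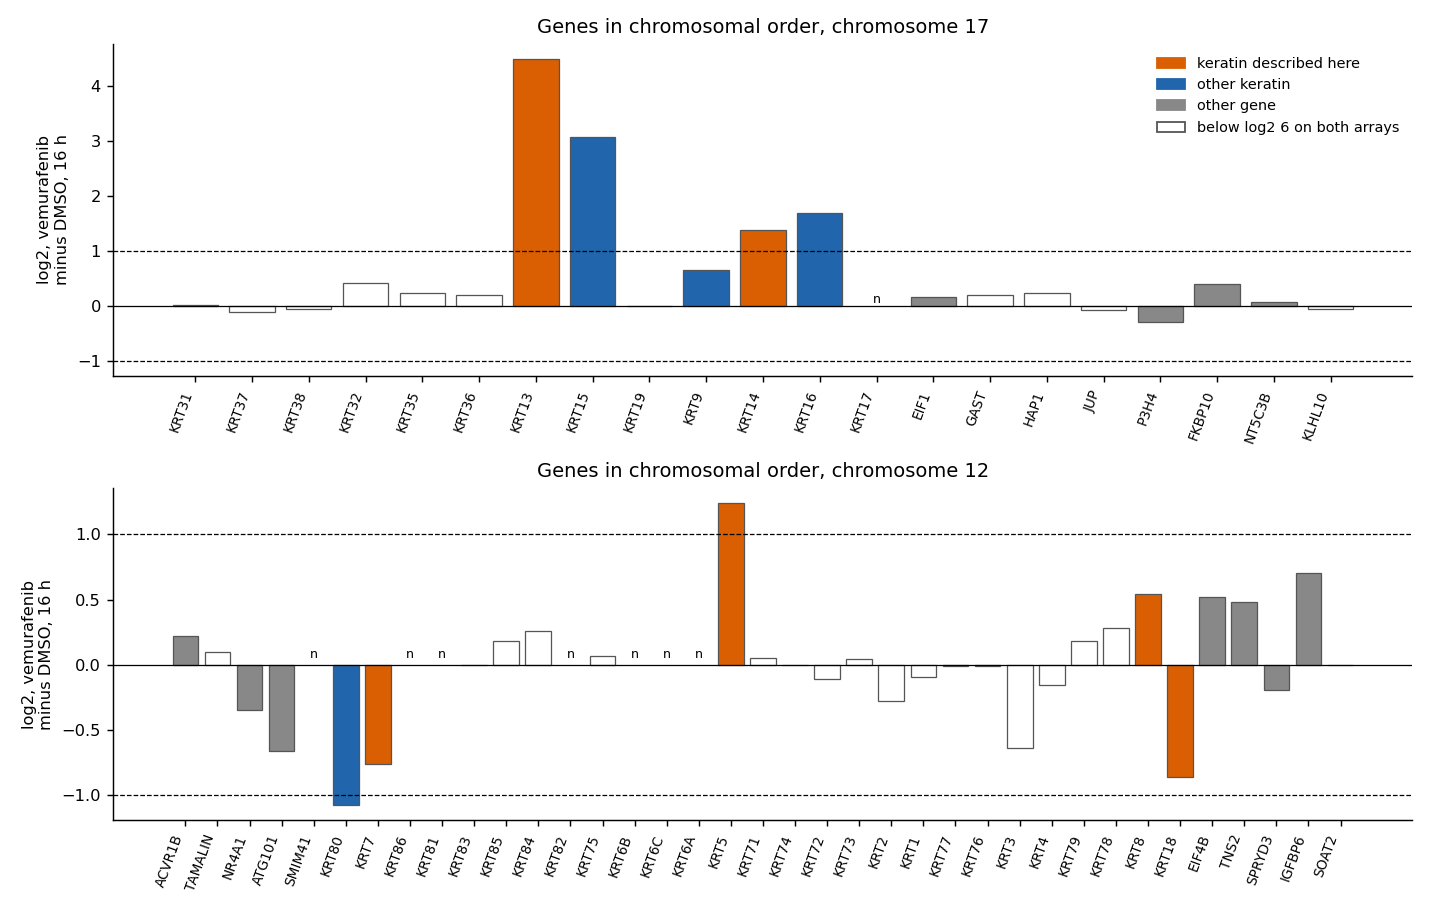
Difference in log2 intensity between vemurafenib and DMSO at 16 h (vertical axis) for protein-coding genes in their RefSeq order round the keratin clusters of chromosomes 17 and 12; open bars are genes below log2 6 on both arrays, n marks genes with no value and dashed lines mark differences of 1. KRT13, KRT15, KRT14 and KRT16 pass the upper line on chromosome 17, and KRT5 on chromosome 12.

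Genes whose products anchor keratins were looked at next. Of 21 measured linker and desmosome genes, 12 reached log2 6 at 16 h, 2 rose and 1 fell, with a median difference of 0.11, beside 2.5% rising, 2.79% falling and a median of 0.00 over all genes. DSC2, a desmosomal cadherin, stood at 7.25 in vemurafenib at 16 h, against 4.77 in DMSO, a difference of 2.48. Its 3 other probe sets had 0.58, 1.14 and 2.34, all on values near background on both 16 h arrays. DSP, which encodes desmoplakin, the protein that ties keratins to the desmosome, stood at 8.10 in vemurafenib, against 6.92 in DMSO, a difference of 1.18. ITGA6, the integrin chain of hemidesmosomes, fell, with 8.60 in vemurafenib and 9.77 in DMSO. Among those under the rule PKP2, PKP3 and DSG2 had differences of 0.69, 0.56 and 0.55, the keratin-binding gene TCHP and the plakophilin gene PKP4 had -0.77 and -0.57, and the cytolinker PLEC had -0.06.

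Among the other intermediate filament genes VIM, which encodes vimentin, the main filament of mesenchymal cells, stood at 13.25 in vemurafenib at 16 h and at 13.37 in DMSO. Of 15 genes measured 2 rose and 0 fell, beside 2.5% rising and 2.79% falling over all genes. Their median difference was -0.01, against 0.00 over all genes. The neurofilament gene NEFL stood at 10.76 in vemurafenib, against 9.32 in DMSO, a difference of 1.44, and it also rose in the combination against DMSO at 6 h, by 1.36. PRPH, which encodes peripherin, stood at 6.36 in vemurafenib at 16 h, against 5.26 in DMSO. The nuclear lamina genes LMNB1, LMNB2 and LMNA had differences of -0.74, -0.78 and -0.53.

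**Figure D4:**
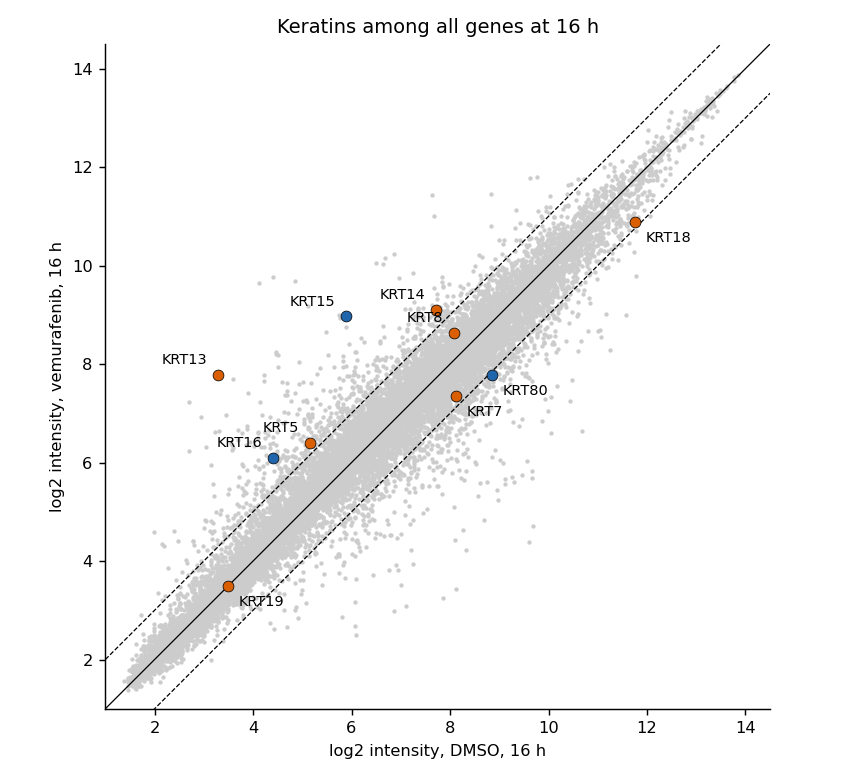
Log2 intensity in vemurafenib (vertical axis) against DMSO (horizontal axis) at 16 h, with all 19676 genes in grey, the 7 members in orange and KRT15, KRT16 and KRT80 in blue; the solid line marks equal values and the dashed lines a difference of 1. KRT13 and KRT15 stand well above the upper line, while KRT7, KRT18 and KRT8 lie between the lines.

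Genes of epithelial identity other than keratins were mostly near background. Of 25 measured, 4 reached log2 6 at 16 h, 2 rose and 1 fell, beside 2.5% rising and 2.79% falling over all genes. The median difference was 0.21, against 0.00 over all genes. Of the 25 genes 20 had positive and 4 negative differences, most on values near background. Over all 19676 genes 9700 were positive and 8741 negative. ELF3, an epithelial transcription factor, stood at 6.72 in vemurafenib at 16 h, against 5.13 in DMSO, and the mucin gene MUC1 at 7.06 in vemurafenib, against 5.88 in DMSO. KLF4, a factor of epidermal differentiation, fell by 1.20 at 16 h. At 6 h it differed by 0.09 in vemurafenib alone, and in the combination it fell by 1.05 against DMSO, by 1.14 against vemurafenib and by 1.11 against AT9283. The adhesion genes CDH1 and EPCAM and the regulator GRHL2 lay at or below 3.42 on every array, and TP63 was not analysed here. No cornified envelope gene reached log2 6 on either 16 h array. FLG, which encodes filaggrin, reached it on the AT9283 array alone, at 6.03, against 4.81 in DMSO at 6 h, and was 1 of the 2 genes that rose under AT9283. It stood at 3.48 in the combination, and between DMSO at 16 h and DMSO at 6 h, both near background, it differed by -2.49. Of the mesenchymal factors 1 of 11 rose at 16 h and none fell, beside 2.5% rising and 2.79% falling over all genes. The gene that rose was SNAI2, at 6.29 in vemurafenib and 3.60 in DMSO. The largest negative differences, under the rule, were -0.80 for FN1 and -0.79 for ZEB1. Among the 11 genes 5 had positive and 6 negative differences, and ZEB2 had 1.30 on values near background.

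Markers of other cell types were set beside these values. Of 12 measured keratinocyte markers, SFN, KRT10 and KRT15 reached log2 6 on an array, while DSG1, DSG3, DSC3, IVL, TGM1, S100A14, PKP1, CDH3 and KRT1 did not. Their summed intensity was 3003 in vemurafenib at 16 h, against 2256 in DMSO. Of these sums KRT15 accounts for 501 in vemurafenib and 59.4 in DMSO, SFN for 753 and 548, and KRT10 for 1541 and 1495. The summed intensity of 10 simple epithelial markers was 410 in vemurafenib at 16 h, against 236 in DMSO, with ELF3 and MUC1 the 2 above log2 6. Of 13 melanocyte and melanoma markers 7 reached log2 6, among them SOX10, MITF, CSPG4, MCAM and ERBB3, while MLANA, PMEL, TYR and TYRP1 lay below it on every array. This list was also higher in sum, at 2494 in vemurafenib at 16 h, against 1940.0 in DMSO. ERBB3, a receptor kinase of the neural crest lineage, was its 1 gene over the size rule, rising by 1.09 at 6 h and by 1.08 at 16 h of vemurafenib. Of 8 fibroblast markers COL1A1 and PDGFRB reached log2 6, and the sum was 315 in vemurafenib at 16 h, against 291 in DMSO. Of 4 immune markers LYZ did, and the sum was 102 in vemurafenib, against 139 in DMSO. None of 5 endothelial markers did, with sums of 80.6 in vemurafenib and 81.0 in DMSO. The part of other cells in the keratin values was not tested.

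**Figure D5:**
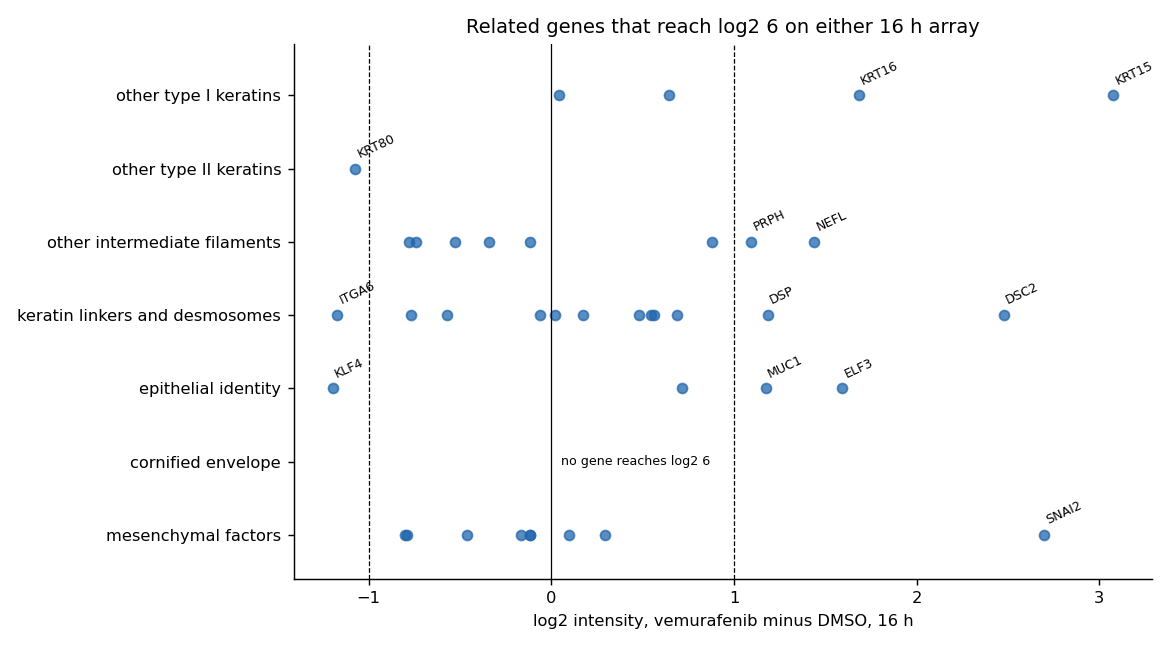
Difference in log2 intensity between vemurafenib and DMSO at 16 h (horizontal axis) for the genes of 7 related lists that reached log2 6 on either 16 h array, 1 point per gene, with genes at differences of 1 or more named; dashed lines mark 1 either way. KRT15, SNAI2 and DSC2 have the highest points, and no cornified envelope gene is plotted.

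For the 3 members over the size rule, the genes with the most similar profile over the 6 arrays were sought among 9703 genes that reached log2 6, with each profile centred on its mean and likeness given as the root mean square distance in log2 units. CLIC3, which encodes a chloride channel protein, was closest to KRT13 at a distance of 0.31, followed by VAC14-AS1 at 0.50 and CNTN4 at 0.50. CLIC3 stood at 8.24 in vemurafenib at 16 h, against 4.47 in DMSO. MAGED2 (0.04), TSPAN31 (0.06) and GDPD3 (0.06) were closest to KRT5, and OR51B4, PAQR6 and HPSE (each 0.06) to KRT14. With 6 arrays of 1 line and a profile dominated by the vemurafenib array at 16 h, such distances describe these arrays and say nothing on shared control.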

How the data were processed

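The deposited table holds the intensity of each probe set on 6 arrays, not log-transformed. RMA is the tool named per the submitters' processing notes, and for its version and later steps the sources used here give nothing. Members and gene lists were chosen with earlier results of these data known. Of 54675 probe sets 41097 had 1 gene symbol in the platform annotation, 1801 had several and 11777 were not listed. In identifier order, 101 rows and 1001 rows were left out because their 6 h values sat on other rows (r between the DMSO arrays 0.440 in these rows and 0.991 elsewhere), as were 62 control probe sets. No member's probe set was among them. Intensities were converted to log2 with Python 3.11.15 and pandas 2.3.3, and the probe set with the highest mean represented a gene. The size rule was run on simulated arrays with shifts planted only in genes above the floor. The collapse step was run on a small made-up table. This checks the code and not the calls for genes near background. Named genes were the 8 members, up to 6 genes over the size rule from each list, 8 genes chosen for the question and the 3 nearest profiles of each member over the rule. Genes of the lists that reached log2 6, chromosomal neighbours and range ends are named as well and were chosen after their values were seen. Alternatives changed the probe set choice, the normalization, the background, the rows left out, the floor, the threshold and the control array.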

Additional observations from a re-analysis of the deposited data

Results flagged for a closer look

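The vemurafenib difference of KRT8 was -0.03 at 6 h and 0.55 at 16 h, so that the difference at 16 h less that at 6 h was 0.58. The 6 h value is small, under 0.25 in size, and its sign is not read. That limit is the SD across genes of DMSO at 16 h minus DMSO at 6 h. It spans both times and is not a replicate error. This was not tested, since each rests on 1 array per condition.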

How the results depend on the processing

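No paired analysis was possible because every condition had 1 array. With 1.5-fold in place of 2-fold, 1 member passed for vemurafenib at 6 h (KRT18), 5 at 16 h (3 up, KRT7 and KRT18 down) and 1 for the combination against DMSO (KRT18), against 0, 3 and 0. KRT5 left the count at 16 h with 16 added to the intensities (0.96) and with a floor of log2 7, which left 2 members. Across the alternatives the difference at 16 h ran from 3.20 to 5.06 for KRT13, from 1.32 to 1.5 for KRT14 and from -0.97 to -0.79 for KRT18. The ends 5.06, 1.5 and -0.97 used the average of the DMSO arrays of both times as control, which mixes the times. Leaving out probe sets with an x or s mark, KRT8, KRT13 and KRT18 had none left and KRT7 differed by 0.00. Leaving out all 1118 rows that the other sorting places differently (added after seeing the data) changed no member, but between DMSO at 16 h and at 6 h it gave 17 higher and 8 lower among all genes, in place of 18 and 13. Of 350 further values for single keratins 331 moved by less than 0.25, the SD of the DMSO pair across genes. No called value changed sign. Many of the 350 could not move, as no member's probe set was among the rows left out and 5 members had a single probe set. The count therefore does not measure stability. The DMSO pair spans both times, so its SD is not a replicate error.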
